A study of Mus musculus with 4 samples.

Results

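The genes described here were 6 ADAMTS proteases, Adamts1, Adamts2, Adamts4, Adamts5, Adamts9 and Adamts12, and the serine protease Htra1. They were chosen by gene symbol, with earlier results of these data known, and all 7 were found among the 55141 genes of the expression table. RNA was taken from articular chondrocytes of mouse femoral heads at 3 weeks of age, released with collagenase and cultured to confluency. There were 4 libraries, 1 for each condition, so the spread between replicates is not known and the text holds no p-value. The first library was labelled wild type. The Cart-miR-23clus KO library came from mice that carry Col2a1-cre together with flox/flox alleles of the miR-23a/b clusters, so that Cre from the type II collagen promoter removes both clusters in cartilage and in other cells that use this promoter. The miR-26a KO library came from miR-26a -/- mice. In the last library, miR-26a -/- chondrocytes had been transfected with a miR-26a mimic, an RNA duplex. The labels give the strain as C57BL/6 for the first 3 conditions and as C57BL6/J for the mimic. The study's methods name floxed mice as the control in places, so the alleles carried by the wild-type library are not certain. Whether the cells of the miR-26a KO library had received the control siRNA, and how many mice gave the cells of each library, is not in the labels.

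ADAMTS proteases are secreted zinc enzymes that cut proteins of the extracellular matrix. Aggrecan, the large proteoglycan that lets cartilage hold water, is cut by the aggrecanases Adamts4 and Adamts5, and Adamts5 is the main aggrecanase of mouse cartilage in models of osteoarthritis. Adamts1 and Adamts9 also cut aggrecan and versican. Adamts2 removes the amino-terminal propeptide of fibrillar procollagens, and Adamts12 can degrade cartilage oligomeric matrix protein. Htra1 is a secreted serine protease that degrades fibronectin and proteoglycans and is found in osteoarthritic cartilage. A miRNA lowers its target mRNAs by pairing, mainly through its seed at bases 2 to 8, with sites in their 3′ UTRs. The miR-23a and miR-23b clusters each encode a miR-23, a miR-27 and a miR-24.

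The mature miRNAs are shown because their seeds set which mRNAs could pair with them. The sequences are from RefSeq on GRCm38.p6, with U and with the seed in capitals, and miR-23b-3p is named only.
miR-23a-3p: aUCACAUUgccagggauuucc
miR-27a-3p: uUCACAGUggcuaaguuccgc
miR-27b-3p: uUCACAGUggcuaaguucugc
miR-24-3p: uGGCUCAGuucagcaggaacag
miR-26a-5p: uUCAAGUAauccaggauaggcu
The sense strand of the transfected mimic equalled miR-26a-5p in every base. miR-27a-3p and miR-27b-3p share their seed, and the other 3 each have their own.

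The annotated 3′ UTR of the longest coding transcript was searched in each gene for the 7 bases complementary to a seed, on the mRNA strand only. The matches were AATGTGA for miR-23, ACTGTGA for miR-27, CTGAGCC for miR-24 and TACTTGA for miR-26a. Of the 7 genes, 3 held at least 1 match, Adamts5, Adamts9 and Adamts12, whereas 40.9% of 20525 3′ UTRs in all held one. The sites are shown from GENCODE transcripts on GRCm38, written as DNA 5′ to 3′ with the match in capitals. All 6 lay in 3′ UTRs and no 2 of them overlapped.
Adamts5, miR-27, chr16:85861023-85861029, minus strand: accataccaaatgtgcctACTGTGAaagat
Adamts5, miR-23, chr16:85860483-85860489, minus strand: aaaaataaatgaagagtaAATGTGAttatc
Adamts5, miR-24, chr16:85859062-85859068, minus strand: ttcccacaaaaacagtgtCTGAGCCtctgc
Adamts5, miR-23, chr16:85858303-85858309, minus strand: tggtaataaacccttattAATGTGAaatat
Adamts12, miR-23, chr15:11349017-11349023, plus strand: agttctgtcactaaagatAATGTGAtgggg
Adamts9, miR-26a, chr6:92772869-92772875, minus strand: agtggtcacaagacatttTACTTGAgaaag
Adamts5 was the gene with matches to all 3 seeds of the deleted clusters. Its 3′ UTR of 6437 bases was also the longest of the 7. Among 231 genes with a 3′ UTR within 10% of that length, 46.3% held the miR-23 match, 52.4% the miR-27 match and 45.5% the miR-24 match. The miR-27 site at base 1581 and the miR-23 site at base 4301 of the Adamts5 3′ UTR had an A after the match, which makes 8 bases, and no other site of the 7 genes did. Such an 8-base match is found in 6.41% of all 3′ UTRs for miR-23, 6.02% for miR-27, 7.38% for miR-24 and 4.25% for miR-26a. Its share among 3′ UTRs of like length was not computed. The miR-23 match is found in 15.2% of all 3′ UTRs, the miR-27 match in 16.2%, the miR-24 match in 16.3% and the miR-26a match in 9.81%. No match to any of the 4 was found in the 3′ UTRs of Adamts1, Adamts2, Adamts4 and Htra1, which are 1574, 3544, 1459 and 529 bases long. Of genes with a 3′ UTR of like length, 35.6% held the miR-23 match in the case of Adamts12 and 12.1% the miR-26a match in the case of Adamts9. A match is a description of the sequence and not a measured site.

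**Figure D1:**
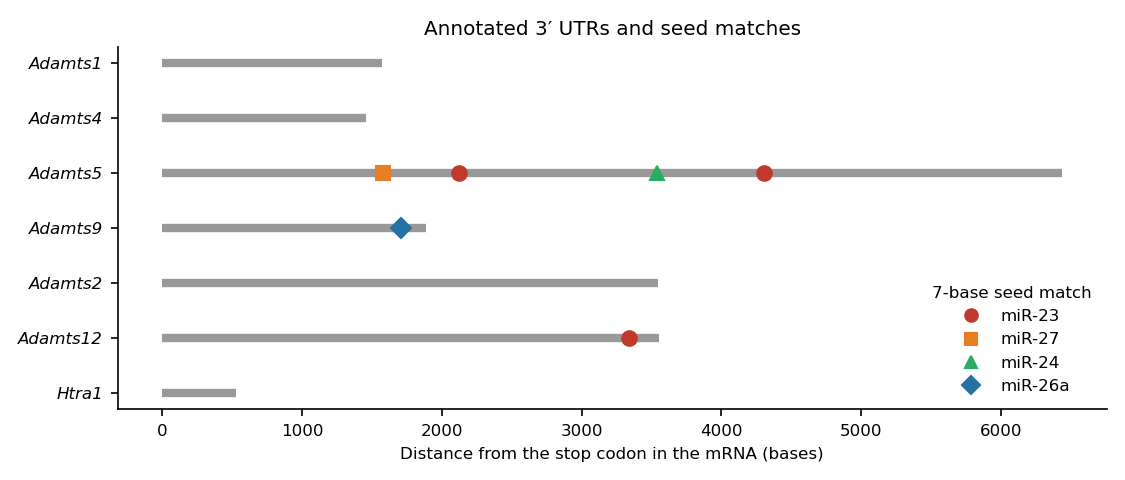
Annotated 3′ UTRs of the 7 genes, drawn from the stop codon in bases of the mRNA, with the 7-base matches to the seeds of miR-23, miR-27, miR-24 and miR-26a as coloured symbols. The grey bars are the UTRs; Adamts5 carries 4 of the 6 matches along 6437 bases, and Adamts1, Adamts2, Adamts4 and Htra1 carry none.

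On GRCm38, Adamts1 (chr16:85793827-85803113) and Adamts5 (chr16:85856173-85901828) are neighbours on the minus strand, 53059 bases apart with no protein-coding gene between them. Htra1 lies at chr7:130936111-130985660, Adamts2 at chr11:50602084-50807573, Adamts12 at chr15:11064790-11349231, Adamts4 at chr1:171250421-171260637 and Adamts9 at chr6:92772699-92943492. Htra1 lies within the span of Fgfr2 on the other strand with no exon in common. Adamts9 shares exon bases with 2 predicted coding genes on the other strand, A730049H05Rik and Gm15737, which had 0 reads in every library. The sources used here do not say whether strand was used in counting.

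Reads were made from the 3′ ends of mRNAs, as 75-base single-end reads. The genes of the expression table held 1498579 reads for wild type, 1328042 for Cart-miR-23clus KO and 1362870 for miR-26a KO. For the mimic library 1449246 reads were recovered from its TPM values. That total leaves out 588 genes with TPM above 0 whose reads were not recovered. A gene with 0 reads could have up to 2.00 to 2.26 CPM (reads scaled to library size) on counting error alone. All 15 chondrocyte markers searched had reads in every library, with a summed level of 30261 to 40203 CPM, and endothelial markers had at most 0.753 CPM. Osteoblast markers moved more: their summed level was 8335 CPM for wild type, 1410 for Cart-miR-23clus KO, 4813 for miR-26a KO and 5145 with the mimic. Of the markers of maturing bone cells, Ifitm5 was at 0 in Cart-miR-23clus KO, Dmp1 was at 0 there and in the mimic library, and Phex was at 0 in every library. Macrophage markers summed to 815, 953, 281 and 520 CPM in the same order, fibroblast markers to 779, 1144, 792 and 1003, smooth muscle markers to 221, 484, 223 and 290.5, and adipocyte markers to 43.4, 175, 49.2 and 72.5. The part of these cells in the results was not tested. The rows for Mir23a, Mir23b, Mir27a, Mir26a-1 and Mir26a-2 held 0 reads in every library, as a library from polyadenylated ends does not read mature miRNAs, so the deletions could not be checked from these data.

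Htra1 had the highest level of the 7 genes in every library. Its deposited level was 159 TPM (reads scaled to gene length and library) for wild type, 57.0 for Cart-miR-23clus KO, 203 for miR-26a KO and 226 with the mimic, from 261, 85, 303 and 361 reads. The Cart-miR-23clus KO library stood below the other 3, whose Poisson intervals began at 140 TPM, whereas its own ended at 70.5. Adamts2 came next in wild type with 19.4 TPM (103 reads), and had 4.36 TPM (21 reads) in Cart-miR-23clus KO, 15.5 TPM (75 reads) for miR-26a KO and 16.8 (87 reads) with the mimic. Adamts2 was again low in Cart-miR-23clus KO alone.

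Among the aggrecanases, Adamts1 had 13.1, 6.47, 12.3 and 12.7 TPM, with the libraries from here on in the order used above, from 67, 30, 57 and 63 reads. The 3 libraries other than Cart-miR-23clus KO were close to each other. Adamts5 had 5.59, 3.32, 9.25 and 8.46 TPM in the same order, from 63, 34, 95 and 93 reads. Both miR-26a -/- libraries thus had more Adamts5 than wild type, and Cart-miR-23clus KO had less. Adamts9 had 2.99, 4.34, 4.20 and 3.06 TPM from 25, 33, 32 and 25 reads, and its 4 intervals overlapped. Adamts4, the other classical aggrecanase, had 5, 8, 5 and 8 reads, or 1.09, 1.92, 1.20 and 1.79 TPM. Adamts12 had 12, 3, 4 and 3 reads, or 6.29, 1.73, 2.30 and 1.61 TPM. At these depths no difference was detectable for Adamts4 in any comparison. The 7 genes together held 536, 214, 571 and 640 reads, which is 0.0358%, 0.0161%, 0.0419% and 0.0442% of the reads of each library.

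**Figure D2:**
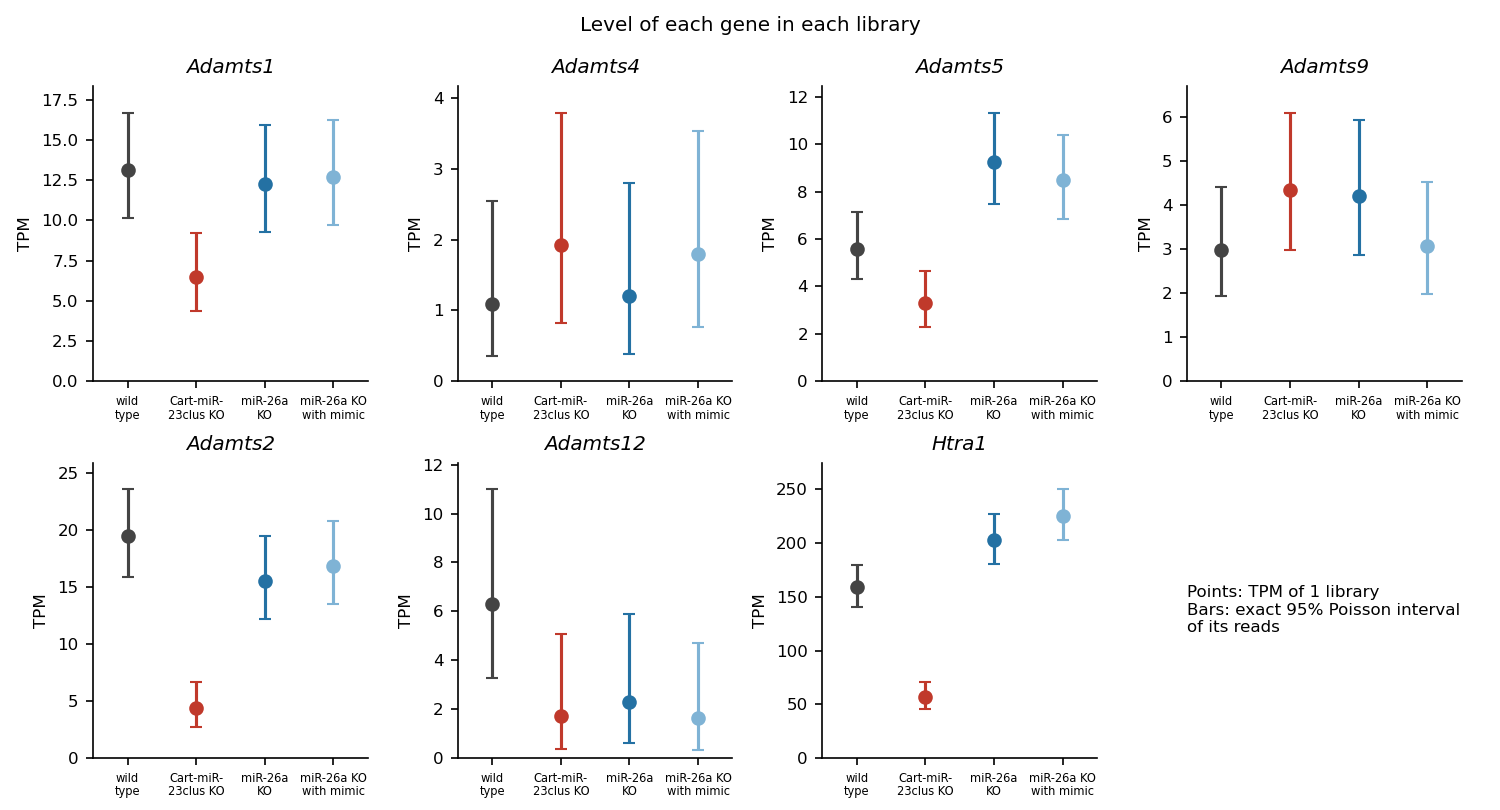
Level of each of the 7 genes, in TPM on axes from 0, in the 4 libraries. Points are 1 library each and bars are exact 95% Poisson intervals of its reads; Htra1 lies at 57.0 TPM in Cart-miR-23clus KO and at 159 to 226 TPM elsewhere, and Adamts5 at 3.32 TPM against 5.59 to 9.25.

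The order of the levels depended on the gene length behind the TPM. For Adamts12 the deposited values rest on a length of 1826 bases, that of a transcript with a retained intron, whereas its longest coding transcript has 8579 bases. At the coding length Adamts12 had 1.34 TPM in wild type in place of 6.29, and ranked 6 of the 7 in place of 4. For Htra1 the length was 1572 bases, also of a retained-intron transcript, against 2041, and its level at the coding length was 122 TPM in wild type, still the highest. For Adamts2 it was 5079, which no GENCODE vM21 transcript of the gene has, against 7266, which gave 13.6 TPM in wild type, beside 13.1 for Adamts1. In Cart-miR-23clus KO, Adamts2 at its coding length had 3.05 TPM and ranked 5, below Adamts9 at 4.34 and Adamts5 at 3.32. The lengths of Adamts1, Adamts4, Adamts5 and Adamts9 were those of their longest coding transcripts. Length cancels in the ratio of 1 gene between libraries. It does not cancel between genes, and whether dividing reads from 3′ ends by a length is apt was not tested. On reads without a length, Adamts5 led the 6 ADAMTS genes in miR-26a KO, with 95 against 75 for Adamts2 and 57 for Adamts1. With the mimic it had 93 against 87 and 63. At either length Adamts5 ranked 4 of the 7 in those libraries. In wild type it had 63 reads, against 103 for Adamts2 and 67 for Adamts1. In Cart-miR-23clus KO it had 34, beside 33 for Adamts9.

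The comparison of Cart-miR-23clus KO with wild type asks what the loss of the clusters does to chondrocytes. Adamts2, Htra1, Adamts1 and Adamts5 were lower in Cart-miR-23clus KO, Adamts9 did not differ beyond counting error, and none of the 5 genes with 20 reads or more was higher by either measure. The TPM ratio to wild type was 0.224 for Adamts2 (95% interval 0.133 to 0.361), or 4.45-fold lower. It was 0.359 for Htra1 (0.277 to 0.460), or 2.79-fold lower. For Adamts1 it was 0.493 (0.309 to 0.769), and for Adamts5 it was 0.594 (0.380 to 0.916). At 99% the interval of Adamts5 was 0.330 to 1.04 and included 1. These are exact Clopper-Pearson intervals on the reads of the 2 libraries, and they cover counting error only. In these bulk libraries, fewer cells of a type and less RNA per cell cannot be told apart. In the study's real-time PCR of cultured chondrocytes, which had replicates, Adamts5 did not differ significantly between Control and Cart-miR-23clus KO. The study also saw no change in ADAMTS5 staining of knee cartilage between these mice, a measure of protein at older ages.

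For Adamts9 the ratio was 1.45 (0.838 to 2.55). Adamts4 and Adamts12 had fewer than 20 reads in both libraries together and were left out of the counts. Their ratios were 1.76 (0.508 to 6.84) for Adamts4 and 0.275 (0.0498 to 1.02) for Adamts12. Of the 5 genes with 20 reads or more, 3 had a ratio below 0.5, the limit the study uses, as did 4.38% of 9573 genes. None had a ratio above 2, as did 4.73% of all genes. The interval lay below 1 for 4 of the 5, and for 12.3% of all genes, and above 1 for none of the 5 and for 11.8% of all genes. At 99% it lay below 1 for 3 of the 5, without Adamts5, and for 7.35% of all genes. The median log2 ratio was -1.02 over the 5 genes and -0.02 over all genes tested. As the genes were chosen with earlier results of these data known, the shares of all genes are given for scale and test no excess. Adamts1 lay at the 0.5 limit: with library totals in place of TPM its ratio was 0.505, and 2 of the 5 genes remained below 0.5.

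**Figure D3:**
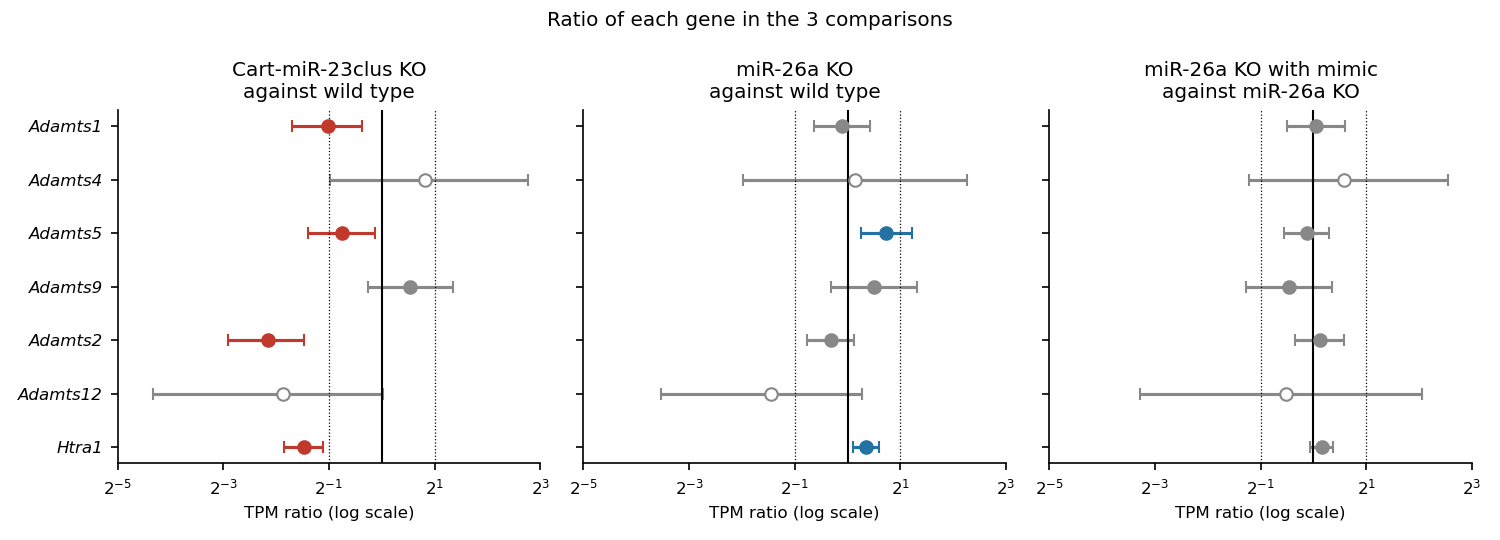
TPM ratio of each gene, on a log scale, in the 3 comparisons, with exact 95% intervals of the reads as bars; red intervals lie below 1, blue above 1 and grey include 1, open circles mark fewer than 20 reads together, and dotted lines mark ratios of 0.5 and 2. Against wild type, Adamts2 at 0.224, Htra1 at 0.359, Adamts1 at 0.493 and Adamts5 at 0.594 are red in Cart-miR-23clus KO, and Adamts5 at 1.66 and Htra1 at 1.27 are blue in miR-26a KO.

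The same 4 genes were low in Cart-miR-23clus KO when the other libraries took the place of wild type. Against miR-26a KO the ratio was 0.281 (0.164 to 0.460) for Adamts2, 0.281 (0.218 to 0.359) for Htra1, 0.359 (0.235 to 0.536) for Adamts5, 0.528 (0.327 to 0.835) for Adamts1 and 1.03 (0.616 to 1.74) for Adamts9. There, 3 of the 5 genes, Adamts2, Htra1 and Adamts5, were below 0.5, against 3.43% of 9453 genes, and none was above 2, against 3.99%. The interval lay below 1 for 4 of the 5, against 10.7% of all genes, and above 1 for none, against 8.26%. Against the mimic library the ratios were 0.253 (0.197 to 0.321) for Htra1, 0.259 (0.153 to 0.421) for Adamts2, 0.392 (0.257 to 0.587) for Adamts5 and 0.511 (0.319 to 0.801) for Adamts1. The value for Adamts9 against the mimic library was 1.42 (0.817 to 2.48). Here the same 3 of the 5 genes were below 0.5, against 3.91% of 9534 genes, and none was above 2, against 3.20%. The interval lay below 1 for 4 of the 5, against 11.5% of all genes, and above 1 for none, against 8.12%. All of these comparisons share the Cart-miR-23clus KO library, so they do not repeat the measurement of it.

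**Figure D4:**
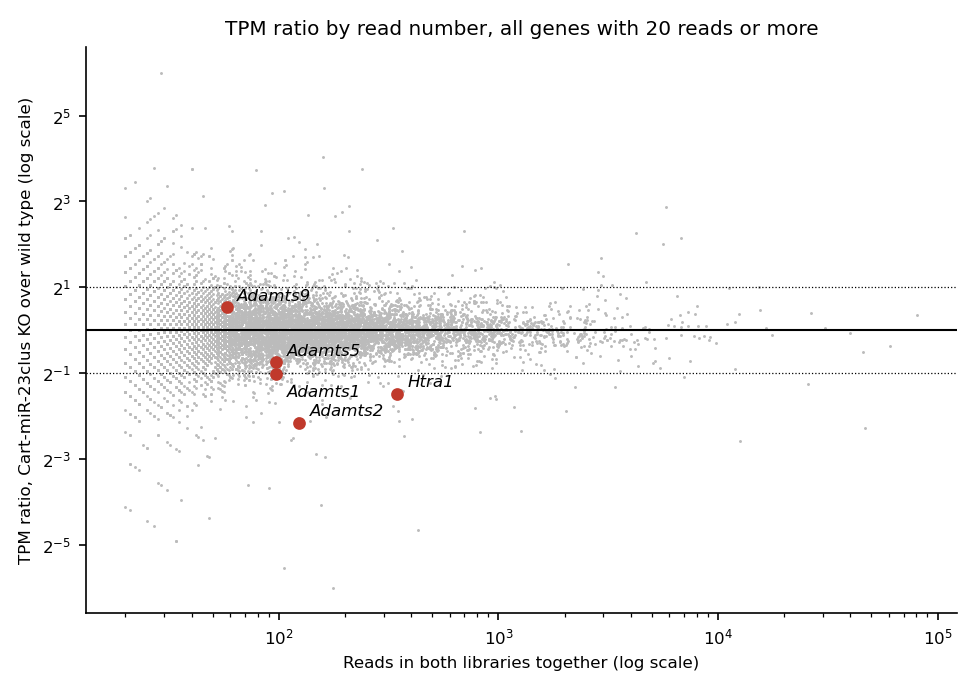
TPM ratio of Cart-miR-23clus KO over wild type against the reads of both libraries together, both on log scales, for genes with 20 reads or more (grey points); red points mark Adamts1, Adamts2, Adamts5, Adamts9 and Htra1, and dotted lines the ratios 0.5 and 2. The plot leaves out 3 genes with 0 reads in Cart-miR-23clus KO and draws 2 extreme genes at its edges; Adamts2, with 124 reads, lies at 0.224 and Htra1, with 346, at 0.359, both under the 0.5 line.

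The substrates and partners of these enzymes were read from lists in the same comparison. The procollagens and their processing genes were lower together: the interval lay below 1 for 7 of 8 genes with 20 reads, above 1 for none, and the median log2 ratio was -0.86. Col1a1 and Col1a2, the chains of type I collagen, had ratios of 0.207 (0.202 to 0.212) and 0.417 (0.405 to 0.428). Bmp1, which removes the carboxy-terminal propeptide, had 0.475 (0.274 to 0.797), and Col5a1 had 0.517 (0.482 to 0.555). The 2 other procollagen N-proteinases, Adamts3 and Adamts14, had at most 2 reads in any library. Type I collagen is abundant in osteoblasts, whose markers fell from 8335 to 1410 CPM in the same library, and the part of such cells in the lower Col1a1, Col1a2 and Adamts2 was not tested.

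Among the proteoglycans and their partners, 5 of 11 genes had an interval above 1 and 4 below 1, with a median log2 ratio of 0.10. Aggrecan itself (Acan) had 661 TPM in wild type and 592 TPM in Cart-miR-23clus KO, a ratio of 0.896 (0.860 to 0.934). Matn1 at 0.402 (0.372 to 0.434) and Hapln1, the link protein of aggrecan, at 0.561 (0.481 to 0.653) were lower. Comp at 1.70 (1.50 to 1.92) and Matn4 at 1.66 (1.38 to 2.01) were higher.

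Of the inhibitors, activators and clearance genes, 4 of 8 had an interval above 1 and 2 below 1, with a median of 0.05. Timp1, an inhibitor of metalloproteases, rose from 621 to 1797 TPM, a ratio of 2.89 (2.63 to 3.19). Timp2 had 1.48 (1.41 to 1.54), and Sdc4, a membrane proteoglycan that binds aggrecanases, had 1.45 (1.25 to 1.69). Pcsk6, a proprotein convertase, had 0.646 (0.575 to 0.726). Timp3, the main inhibitor of the aggrecanases, went from 3202 to 3327 TPM, a ratio of 1.04 (1.02 to 1.06).

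Inducers of aggrecanases and genes of their signalling were read as a further list. Of the 7 with 20 reads, 1 had an interval above 1 and none below 1, and the median log2 ratio was 0.12. That gene was Nfkbia, at 1.35 (1.04 to 1.77), which restrains NF-κB and is not itself an inducer. The receptor Il1r1 had 6 reads in wild type against 14 in Cart-miR-23clus KO, a ratio of 2.57 (0.927 to 8.16). Il1a, Il1b and Il6 had 0 reads in all 4 libraries, which allows up to 2.26 CPM.

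**Figure D5:**
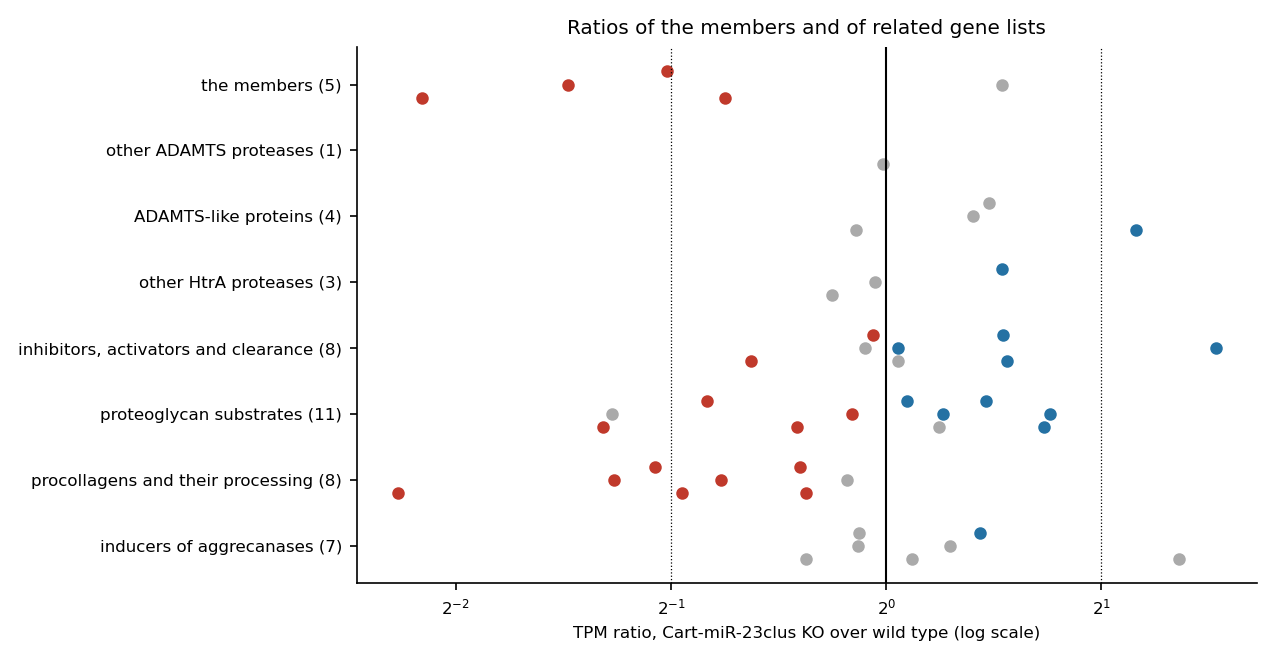
TPM ratio of Cart-miR-23clus KO over wild type, on a log scale, for the members and for 7 related gene lists, 1 point for each gene with 20 reads or more and the number of such genes in brackets; red points have an exact 95% interval below 1, blue above 1 and grey including 1, and vertical offsets only separate the points. Of the procollagen list 7 of 8 points are red, whereas the proteoglycan substrates lie on both sides of 1.

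Other members of the protein families were mostly near the floor. Of 13 other ADAMTS proteases, 7 had reads in any library and only Adamts10 had 20 reads in a comparison. It had 30, 27, 21 and 29 reads in the order given above, and a ratio of 0.991 (0.567 to 1.72) in Cart-miR-23clus KO. Adamts17 had 8, 0, 1 and 3 reads and Adamts18 had 5, 0, 7 and 2. Both were under the minimum of 20 reads together. Among the ADAMTS-like proteins, which lack the protease domain, Adamtsl4 had 36 reads in wild type and 73, 81 and 83 in the others. Its ratio was 2.23 (1.48 to 3.43) in Cart-miR-23clus KO and 2.47 (1.65 to 3.77) in miR-26a KO. The other HtrA proteases had ratios in Cart-miR-23clus KO whose intervals lay above 1 or included it. Htra3 was at 1.45 (1.04 to 2.03), Htra2 at 0.840 (0.557 to 1.26) and Htra4 at 0.963 (0.435 to 2.11).

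The comparison of miR-26a KO with wild type asks the same of the loss of miR-26a. Adamts5 and Htra1 were higher in miR-26a KO, and Adamts1, Adamts2 and Adamts9 did not differ beyond counting error. The ratio was 1.66 (1.19 to 2.31) for Adamts5 and 1.27 (1.08 to 1.51) for Htra1. The interval thus lay above 1 for 2 of the 5 genes, and for 11.1% of 9545 genes tested, and below 1 for none, against 8.59% of all genes. None of these 5 genes had a ratio below 0.5 or above 2, as had 3.50% and 3.88% of all genes. The other ratios were 0.934 (0.645 to 1.35) for Adamts1, 0.800 (0.586 to 1.09) for Adamts2 and 1.41 (0.807 to 2.47) for Adamts9, which holds the miR-26a match. The median log2 ratio was 0.35 over the 5 genes and 0.02 over all genes. Adamts4 and Adamts12, again under 20 reads, had 1.10 (0.253 to 4.77) and 0.366 (0.0861 to 1.21). For Adamts5 and Htra1 the difference from wild type was on the other side of 1 from that in Cart-miR-23clus KO, and the direct ratios of the 2 knockouts are given above.

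Around these genes, 4 of 11 proteoglycan substrates had an interval above 1 and 4 below 1 in miR-26a KO, with a median log2 ratio of -0.19. Matn1 was at 0.350 (0.323 to 0.379), Hapln1 at 0.538 (0.461 to 0.628), Matn4 at 0.581 (0.451 to 0.744) and Acan at 0.714 (0.683 to 0.746). Of the procollagen genes, 2 of 8 were above 1 and 5 below 1, with a median of -0.16, and Col1a1 was at 0.425 (0.417 to 0.433). Of the inhibitors, activators and clearance genes, 4 of 8 were above 1 and 1 was below 1, with a median of 0.23. The metalloprotease inhibitors Timp1 at 2.18 (1.97 to 2.41), Timp2 at 1.90 (1.82 to 1.98) and Timp3 at 1.42 (1.39 to 1.45) were all higher. Of the 6 inducers with 20 reads, only Ddr2, a collagen receptor, had an interval apart from 1, at 1.26 (1.11 to 1.43). Htra3 was higher at 1.73 (1.26 to 2.39) and Htra2 lower at 0.614 (0.389 to 0.956).

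The comparison of the mimic library with miR-26a KO asks what a return of miR-26a does. None of the 5 genes differed beyond counting error. The ratio was 0.915 (0.680 to 1.23) for Adamts5, 1.11 (0.953 to 1.30) for Htra1, 1.03 (0.710 to 1.50) for Adamts1, 1.08 (0.787 to 1.50) for Adamts2 and 0.730 (0.415 to 1.27) for Adamts9. None of the 5 had a ratio below 0.5 or above 2, against 1.46% and 1.89% of 9471 genes, and no interval lay below or above 1, against 5.05% and 5.07%. The median log2 ratio was 0.05 over the 5 genes and -0.0042 over all. Against wild type, the mimic library had ratios of 1.51 (1.09 to 2.12) for Adamts5 and 1.42 (1.21 to 1.67) for Htra1, so both stayed above wild type after transfection. Adamts12, with 12 reads in wild type and 3 with the mimic, had 0.257 (0.0465 to 0.951). In order of level, Adamts5 and Htra1 were lowest in Cart-miR-23clus KO, then in wild type, and the 2 miR-26a -/- libraries above them did not differ from each other beyond counting error. For Adamts1 and Adamts2 the 3 libraries above Cart-miR-23clus KO did not differ in this way. The intervals do not show that the mimic had no effect: for Adamts9 they reach from 0.415 to 1.27.

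Of the related genes in the mimic library, Matn1 was at 0.487 (0.431 to 0.549) of its miR-26a KO level and Ddr2 at 0.750 (0.659 to 0.854). Timp1 was at 1.31 (1.22 to 1.42), whereas Timp2 was at 0.939 (0.905 to 0.973) and Timp3 at 0.844 (0.828 to 0.861). Htra4 was at 1.83 (1.08 to 3.17). The inhibitors, activators and clearance genes had 2 of 8 above 1 and 2 below, with a median of 0.06. The proteoglycan substrates had 3 of 10 genes below 1 and none above, with a median of -0.06. The procollagens had 3 of 8 above 1 and 1 below, with a median of 0.05, and Col1a1 was at 1.19 (1.16 to 1.21).

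The genes whose levels over the 4 libraries were most like those of a member were found by the distance between log2(TPM + 0.5) values, each centred on its mean, among 5659 genes with 100 reads or more over the 3 libraries with deposited counts. With 4 points this describes the libraries only. The nearest to Adamts2 were Alpl, the alkaline phosphatase of mineralising cells, Panx3, a channel protein of bone and cartilage, and Frmd6, at distances of 0.34, 0.34 and 0.35. Alpl had 266, 51.0, 174 and 238 TPM in the order of libraries used above. The nearest to Adamts5 were Cdkn2a, a cell cycle inhibitor, Thbd, or thrombomodulin, and Mmp13, the main collagenase of cartilage, at 0.13, 0.20 and 0.24. Mmp13 had 507, 330, 871 and 925 TPM in the same order. For Htra1 they were Slc16a3, a lactate transporter, Ndufa4l2 and Trim47, at 0.24, 0.32 and 0.36. For Adamts1 they were Fst, or follistatin, Ptk7 and Papss1, an enzyme that makes the sulphate donor for proteoglycans, at 0.068, 0.080 and 0.11. The pattern of Adamts1 was common, with 501 genes within a distance of 0.5, compared with 66 for Adamts5 and 5 each for Adamts2 and Htra1. Among these 4 members, the others having fewer than 100 reads, the closest pair was Adamts2 and Htra1 at 0.57, and the neighbouring genes Adamts1 and Adamts5 stood 0.59 apart.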

How the data were processed

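The members and lists were chosen with earlier results of these data known. The authors prepared QuantSeq 3′ FWD libraries and mapped reads to mm10 (processing notes also name GRCm38.p6); aligner, counter and annotation are not given in the sources used here. The deposited estimated counts are whole reads per gene, without normalization, for 3 libraries. The deposited TPM values, for all 4, were made by the authors by dividing reads by 1 gene length and scaling each library to a common total. Reads of the mimic library were recovered from its TPM steps: all 14429 values recovered were whole within 0.01, and 588 genes were not recovered. The same steps returned the deposited reads in the other libraries for 100% of recovered genes.

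Ratios are of deposited TPM, with exact 95% Clopper-Pearson intervals on reads and Poisson intervals on levels, over genes with 20 reads in both libraries together. Without molecular identifiers, intervals cover counting error only. All 7 members are named; from a list, up to 4 genes with the largest ratio whose interval excluded 1, and others (Acan, Timp3, Il1r1, family members) were named after their values were seen. Alternatives were CPM, edgeR TMM, DESeq2 size factors, 0.5 or 1 TPM added, 99% intervals, other filters and 8-base matches. Gene names were matched by identifier, 3′ UTRs of at least 50 bases came from GENCODE vM21. Interval code was tested on simulated data. Protein features were not analysed here. A withheld item is not reported here. Python 3.11.15, SciPy 1.17.1, R 4.3.3, edgeR 4.0.16 and DESeq2 1.42.0 were used.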

Additional observations from a re-analysis of the deposited data

How the results depend on the processing

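No paired analysis was possible because there was 1 library for each condition. Over CPM, edgeR TMM, DESeq2 size factors and 0.5 or 1 TPM added, none of the 105 alternative ratios of the 7 genes left its interval and no called ratio crossed 1. The scalings changed the ratios only by factors of 0.977 to 1.02, which is small beside the intervals. For them this outcome was thus nearly fixed in advance. In Cart-miR-23clus KO against wild type, 3 genes were below 0.5 on TPM and 2 on CPM or with TPM added, since Adamts1 lies at that limit, and 4 intervals excluded 1 at 95% and 3 at 99%, where that of Adamts5 included it. Compared with the miR-26a KO library 3 were below 0.5, with Adamts5 in place of Adamts1, and alternatives added after the data were seen gave those 3 against the mimic library and 4 intervals below 1 against either. Matches of 8 bases left 1 of the 3 genes with a seed match, Adamts5, since they are a stricter form. Of all 3′ UTRs, 4.25% to 7.38% held the 8-base match of each miRNA. Counts of all genes past 2-fold followed the filter on reads: 872 in Cart-miR-23clus KO against wild type became 2489 with TPM above 0 in both and 245 with 20 reads in each, 704 in miR-26a KO became 2205 and 169, and 317 with the mimic became 1700 and 27. Adamts4 and Adamts12, with at most 16 reads in any 2 libraries together, are limited by depth.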

Other observations

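Among 9961 genes whose length behind the deposited TPM was read and set beside GENCODE, 62.0% had the length of their longest coding transcript. For 1380 genes, 13.9%, as for Adamts12 and Htra1, it was the length of a noncoding transcript only, and for 671 genes, 6.74%, the longest coding transcript was over 4 times longer than the length used, as for Adamts12.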
